A study of Homo sapiens with 12 samples.

Results

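The 10 mRNAs described here encode Krüppel-like factors: KLF2, KLF3, KLF4, KLF5, KLF6, KLF7, KLF9, KLF10, KLF11 and KLF13. They were chosen by gene symbol, with earlier results of these data known, from the 23615 symbols in the deposited data. Each of the 10 had values at both times. The cells were HEK293T, an established kidney epithelial line of human embryonic origin with the SV40 large T antigen. Cells of the vehicle groups received peptide storage buffer for 18 h, and cells of the CP25 groups received CP25 at 2 μM for the same time. CP25 is described in the labels as a macrocyclic inhibitor of Dcp2, the enzyme that removes the 5′ cap of mRNA. Transcription was then blocked in all groups with actinomycin D at 5 μg/mL, and RNA was taken 0 h or 2 h later. Poly(A) RNA was sequenced in 3 libraries for each of the 4 combinations of treatment and time. Levels are FPKM, that is, fragments scaled to transcript length and to the fragments of the library.

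Krüppel-like factors are transcription factors that bind GC-rich and CACCC elements through zinc fingers at their carboxyl end. The amino-terminal parts differ and sort the family by cofactor. KLF2, KLF4, KLF5, KLF6 and KLF7 act largely as activators through acetyltransferases. KLF3 represses through the corepressor CtBP. KLF9, KLF10, KLF11 and KLF13 recruit the corepressor SIN3A. Several family members are induced quickly by serum, growth factors or hormones, and short-lived mRNAs are common among such genes. AU-rich elements in the 3′ untranslated region, built on the pentamer ATTTA, are known to recruit proteins that speed or slow the decay of an mRNA.

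The depth was estimated from the smallest step between FPKM values, which is worth 1 fragment. In units of 10⁶ fragments, the libraries ranged from 13.1 to 22.1 before the block and from 22.1 to 29.3 after 2 h. All 10 listed HEK293 marker genes averaged 1 FPKM or more, led by VIM at 216 FPKM. None of 5 haematopoietic, 4 endothelial and 4 keratinised or glandular epithelial markers reached that level; the highest was MUC1 at 0.766 FPKM, and CD3E, HBB and KRT5 were at 0 in every library. Of the fibroblast markers, 2 of 4 reached 1 FPKM, with a summed level of 3.27 to 5.45 FPKM, but DCN and PDGFRB did not. Of the muscle markers only ACTA2 did, among 3. The part of these genes in the results was not tested. In bulk RNA, fewer cells that express a gene and less of its RNA per cell cannot be told apart.

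The 3′ UTRs of the family are described first, because the results concern how much of each mRNA was left after the block. The pentamer search was chosen after those levels had been seen. In the GENCODE 29 transcript chosen for each gene, the ATTTA pentamer occurred in all 10 members, as it did in 64.4% of 18924 protein-coding 3′ UTRs. The longer core TATTTAT, which contains 1 pentamer, occurred once each in KLF2, KLF5, KLF6, KLF7 and KLF11, and in 28.8% of all UTRs. Among UTRs within 10% of each member's length, the core was in 22.6% (KLF2), 37.0% (KLF5), 59.6% (KLF6), 78.1% (KLF7) and 49.2% (KLF11). For the members without it, these shares were 63.3% (KLF3), 22.3% (KLF4), 55.2% (KLF9), 32.1% (KLF10) and 74.3% (KLF13). The 5 sites of the members with the core are shown so that it can be seen in its context. Each is 25 bases of exonic 3′ UTR on the mRNA strand, written 5′ to 3′ as DNA letters, with the core in capitals.
KLF2 (chr19:16327103-16327127, GRCh38, plus strand): tgtgactggTATTTATtggacccag
KLF5 (chr13:73077179-73077203, GRCh38, plus strand): gtttatcttTATTTATtttgtggta
KLF6 (chr10:3778343-3778367, GRCh38, minus strand): tgtttctctTATTTATgccttgagg
KLF7 (chr2:207075431-207075455, GRCh38, minus strand): cttctctggTATTTATaatatatca
KLF11 (chr2:10052882-10052906, GRCh38, plus strand): ttagaaaaaTATTTATattgttggt
KLF4 has no such core, and its only 2 pentamers are shown, in capitals, for comparison with these sites.
KLF4 (chr9:107485149-107485173, GRCh38, minus strand): tccgatcaacATTTAtgacctaagt
KLF4 (chr9:107484964-107484988, GRCh38, minus strand): tgtaatataaATTTAagcaaacgtc

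Before the block, the family was expressed over a wide range of levels, with KLF3 highest and KLF2 lowest. In vehicle at 0 h, KLF3 stood at 14.7 ± 0.174 FPKM (SD, n = 3) and its libraries lay above those of every other member. A middle group followed in the order KLF9, KLF10, KLF5, KLF11, KLF13 and KLF6, from 11.0 down to 6.80 FPKM. Neighbours in that order had overlapping libraries, so their order is not fixed by these data. KLF4 (1.41 FPKM), KLF7 (1.12 FPKM) and KLF2 (0.792 FPKM) came last. KLF4 lay above KLF7 in every vehicle library, whereas KLF7 and KLF2 overlapped. Averaged over the 6 libraries of 0 h, 9 members reached 1 FPKM, all but KLF2. At 2 h, and over all 12 libraries, 7 did, all but KLF2, KLF4 and KLF7.

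**Figure D1:**
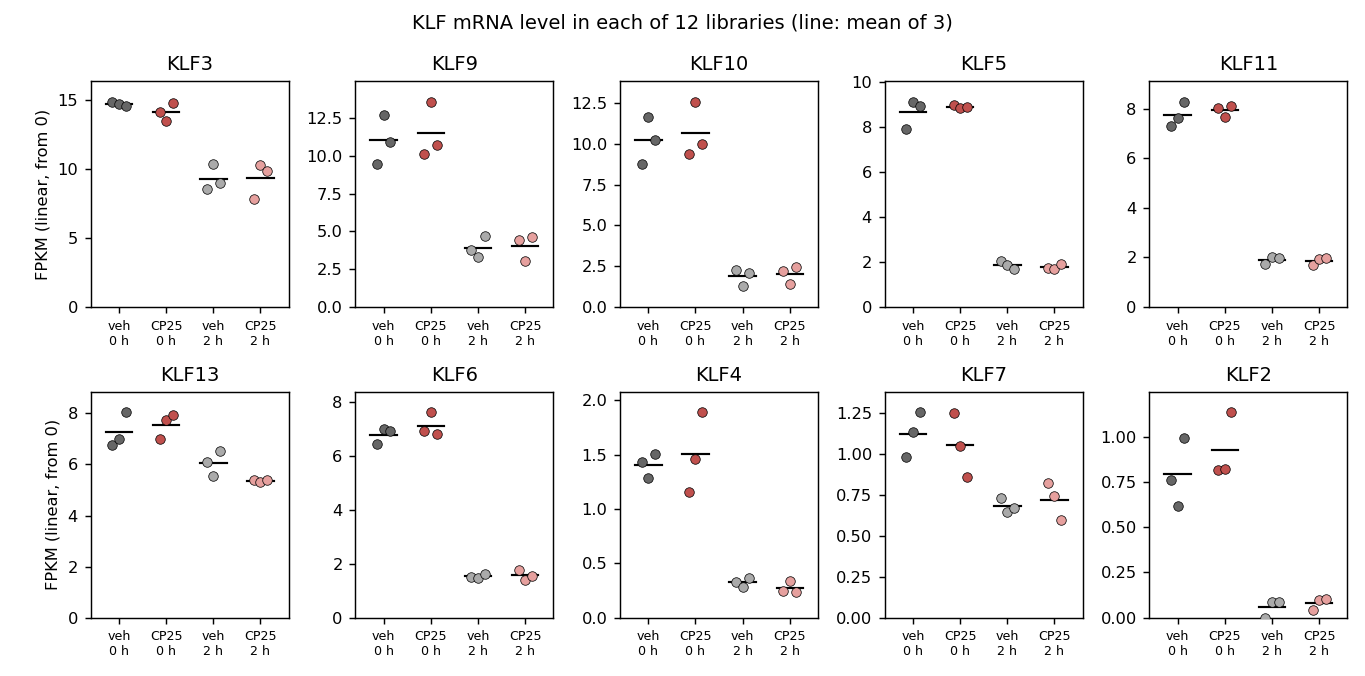
FPKM of each member (vertical axes, linear from 0, scaled per gene) in the 12 libraries, as points for each group of 3 with a line at the mean. In all 10 panels the 2 h libraries sit below the 0 h libraries of the same treatment, with the smallest gap for KLF13 and KLF7.

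After 2 h of actinomycin D, every member was listed at a lower level than at 0 h, and 7 of the 10 were below 50% of their starting level in both treatments. KLF2, KLF4, KLF5, KLF6, KLF10 and KLF11 kept under 25%, KLF9 kept 35.7% in vehicle, and KLF7, KLF3 and KLF13 kept 60.7%, 63.2% and 83.3%. The median over the 10 members was 23.9% in vehicle and 22.8% in CP25, where the median over 12183 tested genes was 86.5% and 87.8%. All libraries of 2 h lay below all of 0 h for 10 of 10 members in both treatments, a separation that 46.0% of the tested genes also had in vehicle and 44.0% in CP25. A level under 50% was reached by 12.1% of the tested genes in vehicle and 11.7% in CP25. A level under 25% was reached by 2.51% and 2.40%. Tested genes are those that averaged 1 FPKM or more across the 12 libraries, and of the 7 members that met this, 5 were under 50% and 4 under 25%. With a lower limit of 0.1 FPKM, which all 10 members met, 13.6% of 14876 genes were under 50% in vehicle and 13.0% in CP25. The times were deposited as separate tables, so these percentages are descriptions with no test, and each is relative to the rest of the library. Whether transcription was fully blocked for each gene was not tested.

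**Figure D2:**
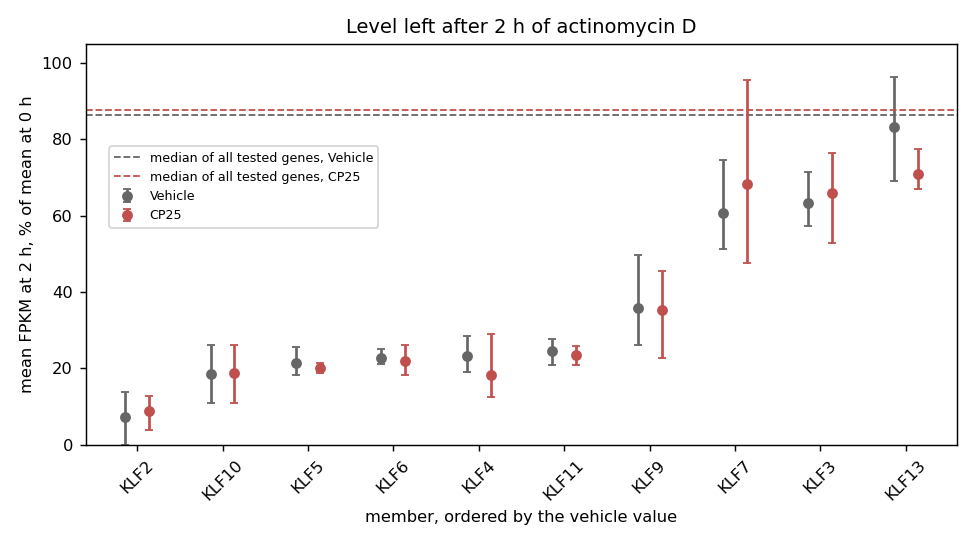
Mean FPKM at 2 h as a percentage of the mean at 0 h (vertical axis) for the 10 members, in vehicle (grey) and CP25 (red); bars run from the lowest 2 h library over the highest 0 h library to the highest 2 h library over the lowest 0 h library. Dashed lines mark the medians of all 12183 tested genes, 86.5% and 87.8%, and 7 members lie under 50%.

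Among the activators, KLF2 is known as a factor of quiescent endothelium and T cells, and its gene lies on chromosome 19 (16324817 to 16327874, GRCh38, plus strand). It was at 0.763, 0.619 and 0.995 FPKM in the vehicle libraries of 0 h and at 0.818, 0.820 and 1.14 FPKM in those of CP25. At 2 h the vehicle libraries were at 0, 0.0852 and 0.0852 FPKM and the CP25 libraries at 0.0440, 0.0965 and 0.104 FPKM. All 2 h libraries were far below all 0 h libraries, and vehicle and CP25 overlapped at both times. The 2 h values rest on very few fragments: about 9 in the 3 vehicle libraries together and about 13 in those of CP25, against 84 and 118 at 0 h. In the vehicle library at 0, a count of 0 allows up to 0.0534 FPKM (3 fragments). Summed fragments left 7.06% in vehicle, with an exact 95% interval of 3.12% to 14.04%, and 8.85% in CP25, with 4.58% to 15.7%. These intervals cover counting error only.

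KLF4 is known as a factor of epithelial differentiation and of reprogramming to pluripotency (chromosome 9, 107484852 to 107489646, GRCh38, minus strand). It was at 1.43, 1.28 and 1.50 FPKM in vehicle at 0 h and at 0.325, 0.286 and 0.366 FPKM at 2 h, which left 23.2%. In CP25 it was at 1.16, 1.47 and 1.89 FPKM and then at 0.248, 0.336 and 0.236 FPKM, which left 18.2%. The ranges of these percentages, 19.0% to 28.5% in vehicle and 12.5% to 29.04% in CP25, overlap over most of their length. The 2 h values correspond to about 15.9 to 25.5 fragments per library.

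KLF5, an activator of proliferating epithelium (chromosome 13, 73058792 to 73077542, GRCh38, plus strand), had tight libraries at both times. It was at 7.91, 9.13 and 8.94 FPKM in vehicle at 0 h and at 2.03, 1.86 and 1.67 FPKM at 2 h. In CP25 the libraries were at 8.98, 8.84 and 8.89 FPKM and then at 1.76, 1.69 and 1.90 FPKM. The level left was 21.4% in vehicle and 20.0% in CP25, and the treatments overlapped at both times. Only 1.77% and 1.50% of the tested genes kept as little or less.

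KLF6, a widely expressed factor named as a growth suppressor (chromosome 10, 3775996 to 3785275, GRCh38, minus strand), was left at much the same level. In vehicle it went from 6.45, 7.004 and 6.94 FPKM to 1.52, 1.48 and 1.61 FPKM. In CP25 it went from 6.92, 7.63 and 6.84 FPKM to 1.79, 1.39 and 1.54 FPKM. The level left was 22.6% and 22.03%, with a range over libraries in vehicle of 21.1% to 24.96%.

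KLF7, known from the developing nervous system, differed from the other activators in these libraries (chromosome 2, 207074137 to 207165945, GRCh38, minus strand). It was at 0.981, 1.14 and 1.26 FPKM in vehicle at 0 h and at 0.733, 0.644 and 0.670 FPKM at 2 h. The CP25 libraries were at 1.25, 1.05 and 0.864 FPKM and then at 0.827, 0.743 and 0.597 FPKM. It kept 60.7% in vehicle and 68.4% in CP25, although its CP25 range of 47.7% to 95.7% was the widest of the family. Its lowest vehicle percentage over libraries, 51.3%, lay above the highest of KLF2, KLF4, KLF5 and KLF6.

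KLF3, the CtBP-binding repressor (chromosome 4, 38664196 to 38701042, GRCh38, plus strand), was the most abundant member at both times. It was at 14.8, 14.7 and 14.5 FPKM in vehicle at 0 h and at 8.50, 10.4 and 8.97 FPKM at 2 h. With CP25 it stood at 14.1, 13.4 and 14.8 FPKM and then at 7.81, 10.3 and 9.85 FPKM. The level left was 63.2% and 66.1%, and 22.2% and 24.3% of the tested genes kept as little or less. KLF12, another CtBP-binding member that was not among the 10, kept 61.4% and 64.0%.

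Of the SIN3A-binding members, KLF9 is known as a target of glucocorticoid and thyroid hormone receptors (chromosome 9, 70384597 to 70414624, GRCh38, minus strand). It was at 9.44, 12.7 and 10.9 FPKM in vehicle at 0 h and at 3.78, 3.32 and 4.69 FPKM at 2 h. In CP25 it was at 10.1, 13.6 and 10.7 FPKM and then at 4.44, 3.07 and 4.62 FPKM. It kept 35.7% in vehicle and 35.2% in CP25, between the 6 members under 25% and the 3 with most left. Its range of 26.2% to 49.6% in vehicle overlapped that of KLF11 below it but not that of KLF7 above it.

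KLF10, first described as a gene induced by TGF-β, had the least left of the 7 members above the expression limit. It was at 8.76, 11.7 and 10.2 FPKM in vehicle at 0 h and at 2.29, 1.28 and 2.08 FPKM at 2 h. With CP25 it stood at 9.36, 12.6 and 10.0 FPKM and then at 2.18, 1.39 and 2.45 FPKM. The level left was 18.4% and 18.8%, and only 1.32% and 1.36% of the tested genes were at or below it. Its range of 11.0% to 26.1% in vehicle covers the values of KLF5, KLF6, KLF4 and KLF11, so these 5 cannot be ranked.

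KLF11, the close relative of KLF10 (chromosome 2, 10043555 to 10054836, GRCh38, plus strand), was at 7.28, 7.64 and 8.28 FPKM in vehicle at 0 h. At 2 h it was at 1.73, 2.01 and 1.96 FPKM. The CP25 libraries went from 8.02, 7.68 and 8.10 FPKM to 1.69, 1.94 and 1.98 FPKM. It kept 24.6% and 23.6%, with little spread between libraries and overlapping treatments.

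KLF13, known for activating the chemokine gene CCL5 in T cells (chromosome 15, 31326855 to 31377899, GRCh38, plus strand), had the most left in both treatments by its mean. It was at 6.76, 6.98 and 8.04 FPKM in vehicle at 0 h and at 6.08, 5.56 and 6.51 FPKM at 2 h. In CP25 it was at 6.98, 7.75 and 7.94 FPKM and then at 5.40, 5.32 and 5.38 FPKM. It kept 83.3% in vehicle, close to the median gene, and 71.0% in CP25, with ranges of 69.1% to 96.4% and 67.0% to 77.3%. From a place in the middle group at 0 h it became the member with the highest level after KLF3 at 2 h, apart from KLF9 in every library.

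The level left did not sort by cofactor. The 5 activators held 4 members under 25% and KLF7 at 60.7%, and the 4 SIN3A-binding members ran from KLF10 at 18.4% to KLF13 at 83.3%. With the members ordered by the level left, neighbours had overlapping ranges at every step except the step above KLF9, in both treatments.

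The count of AU-rich pentamers per kb of 3′ UTR was set beside the level left, as a description over 10 genes from the same libraries. This search was chosen after those levels had been seen. KLF2, the member with the lowest level left, had the highest density, 3.56 pentamers per kb (3 in 843 bases). KLF13, with the highest level left, had the lowest, 0.893 per kb (5 in 5600 bases), and 89.6% of UTRs within 10% of its length held as many or more. The members between did not follow that order. KLF7 kept 60.7% with 2.83 pentamers per kb, 20 in the 7076 bases of the longest UTR of the family. KLF6 kept 22.6% with 1.69 per kb and KLF10 kept 18.4% with 2.22 per kb. The density over all 18924 UTRs was 2.26 per kb. By length, the counts were common: 26.9% of UTRs of similar length held as many pentamers as KLF2, 31.4% as many as KLF5 and 46.2% as many as KLF4.

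The longer core was in 4 of the 7 members under 50% left (KLF2, KLF5, KLF6 and KLF11) and in KLF7 among the other 3. KLF4, KLF9 and KLF10 were below 50% without it. Among all tested genes with an annotated UTR, 15.0% of 3664 with the core and 10.3% of 7093 without it were under 50% left in vehicle. In CP25 these shares were 14.1% and 10.4%. The UTRs with the core were longer, with medians of 2461.5 and 765 bases. Among UTRs under 1 kb the shares were 15.5% with the core and 9.21% without it in vehicle, and 15.9% and 9.40% in CP25. Among UTRs of 3 kb and over, vehicle had 14.6% with the core against 11.7% without it, and CP25 had 11.8% against 11.7%. The Pumilio motif TGTANATA, where N is any base, occurred 3 times in KLF5 and in KLF9, 2 times in KLF2, KLF3 and KLF13, once in KLF6 and KLF7, and not in KLF4, KLF10 or KLF11. It was in 23.4% of all UTRs. Among UTRs within 10% of a member's length, its share ran from 15.2% for KLF2 to 76.5% for KLF7. A match describes the letters of the annotated transcript, and whether these cells use that 3′ end was not tested.

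**Figure D3:**
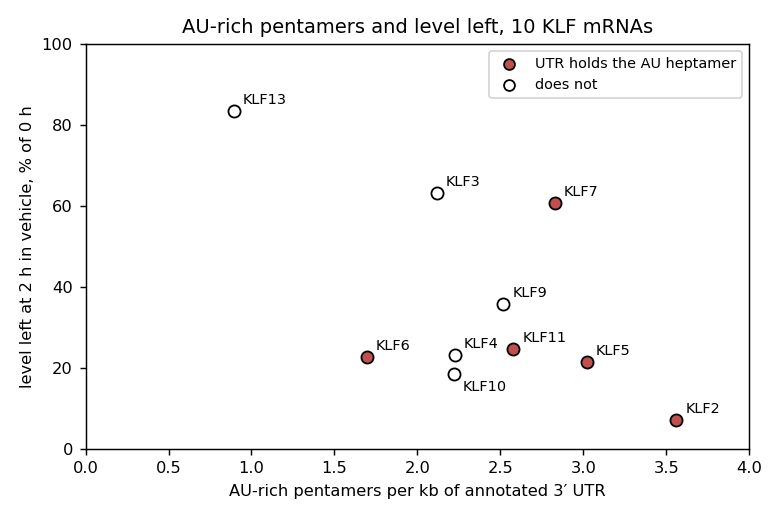
Level left at 2 h in vehicle (vertical axis, % of 0 h) against the AU-rich pentamers per kb of annotated 3′ UTR (horizontal axis) for the 10 members; filled points hold the longer AU heptamer. KLF2 and KLF13 sit at the opposite corners, at 3.56 and 0.893 per kb, while KLF7 and KLF6 lie away from any line between them.

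CP25, described in the labels as an inhibitor of Dcp2, was compared with vehicle. The question was whether it altered the level of these mRNAs before the block or the share left after it. Whether Dcp2 was inhibited in these cells was not tested, and only poly(A) RNA was sequenced. No member passed the test at either time or for the difference between times, and nearly all shifts were small against the spread between libraries. At 0 h, limma called 0.0% of 12365 genes at an adjusted p below 0.05 and 0 of the 9 members tested, and 88 genes (0.712%), none of them a member, had an unadjusted p below 0.05. At 2 h it called 1 of 11745 genes (0.00851%), a small nucleolar RNA, and 0 of the 7 members tested, with 87 genes (0.741%) at an unadjusted p below 0.05. For the change in the CP25 effect from 0 h to 2 h (the difference of effects), it called 0.0% of 12183 genes and 0 of 7 members, with 153 genes (1.26%) at an unadjusted p below 0.05. No member had an unadjusted p below 0.05 in any of these 3 fits, which leave out the replicate number. Their shares of genes below that p were far under the nominal level of 0.05, so these fits were conservative. With the replicate number as a block, the shares were above that level. They were 857 of 12365 genes at 0 h, 814 of 11745 at 2 h and 1284 of 12183 for the difference of effects. Under that block, KLF13 alone among the members tested had an unadjusted limma p below 0.05. It did so at 2 h and for the difference of effects, and no member was called. The authors' deposited p-values, adjusted here, called 0 genes at either time.

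The intervals, given without the replicate block unless stated, set how large an effect could have been present. All differences are on the log2(FPKM + 1) scale, which understates changes of weakly expressed genes. At 0 h the 9 members ran from -0.06 (KLF3) to 0.06 (KLF6), where the median of all tested genes was -0.00365. For KLF3 the 95% interval was -0.19 to 0.08, and for KLF9 it was -0.26 to 0.36. At 2 h the 7 members ran from -0.14 (KLF13) to 0.06 (KLF10). The interval for KLF10, the widest, was -0.37 to 0.49. For the difference of CP25 effects it was -0.52 to 0.54 for KLF10, -0.50 to 0.45 for KLF9 and -0.31 to 0.16 for KLF5. With the replicate number as a block, these intervals were -0.17 to 0.19 for KLF10 and -0.22 to 0.17 for KLF9. The limma adjusted p was 1.00 for each of these members in each comparison. The 3 members below the expression limit at 2 h were outside this fit. Their differences were 0.03 for KLF2, -0.06 for KLF4 and 0.03 for KLF7, with overlapping libraries, and a limma fit without the limit gave each an adjusted p of 1.00.

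KLF13 had the largest CP25 difference at 2 h among the 7 members tested, on the log2(FPKM + 1) scale. As ratios of mean FPKM, CP25 over vehicle, KLF13 was at 0.887, while KLF2 at 1.44 and KLF4 at 0.841 lay further from 1 at their low levels, with overlapping libraries. Its 3 CP25 libraries of 2 h, at 5.32 to 5.40 FPKM, all lay below the 3 vehicle libraries, at 5.56 to 6.51 FPKM. Of the genes tested at 2 h, 1.75% separated in this direction, 2.47% with CP25 higher and 4.21% in either direction. No other member separated at 2 h and none at 0 h, where 4.08% of the tested genes did. The difference was -0.14 (95% interval -0.33 to 0.04), at a limma p of 0.102 and an adjusted p of 1.00. The difference of CP25 effects was -0.20 (-0.44 to 0.04), at a limma p of 0.101 and an adjusted p of 1.00. With the replicate number as a block, the difference at 2 h had a limma p of 0.0376 and an adjusted p of 0.716. The difference of effects then had a limma p of 0.0261 and an adjusted p of 0.414, so neither passed. Under that block 814 of 11745 genes had an unadjusted limma p below 0.05 at 2 h, and 1284 of 12183 for the difference. The authors' deposited table gave an unadjusted p of 0.1624 for KLF13 at 2 h.

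**Figure D4:**
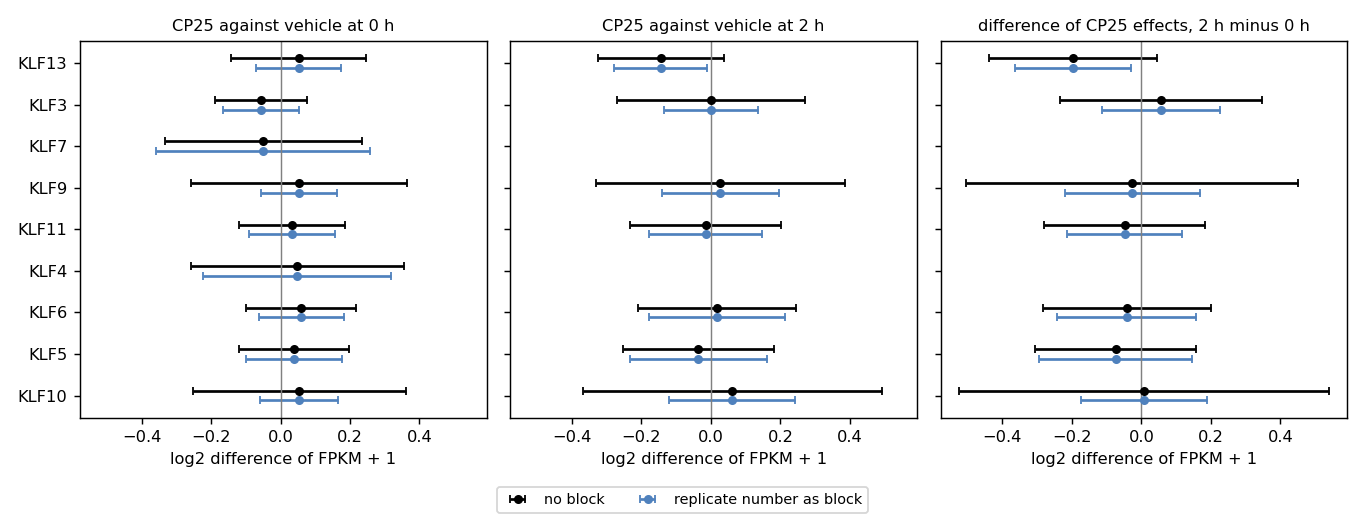
Log2 difference of FPKM + 1 (horizontal axes) between CP25 and vehicle at 0 h and at 2 h, and the difference of the 2 effects, for the members tested in each fit; bars are 95% intervals without (black) and with (blue) the replicate number as a block. Without the block every interval includes 0, and with it only those of KLF13 at 2 h and for the difference of effects do not.

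KLF6, KLF9 and KLF10 shared the place of replicate 2 among their libraries, most clearly KLF9 and KLF10. This was singled out after the values were seen. At 0 h replicate 2 was the highest library of these 3 mRNAs in both treatments. For KLF10 it stood at 114% of the group mean in vehicle and 118% in CP25, for KLF9 at 115% and 118%, and for KLF6 at 103% and 107%. At 2 h replicate 2 was the lowest library of the 3 in both treatments. KLF10 then stood at 68.2% and 69.2% of the group mean, KLF9 at 84.6% and 75.9%, and KLF6 at 96.4% and 88.2%. The other 7 members did not have all 4 extremes, which were found in 7.92% of 12183 tested genes. Of the comparison genes, MYC, JUN and GAPDH had them too and IER2 did not, so this place of replicate 2 was not limited to mRNAs with little left. MYC was at 74.5 and 79.1 FPKM in replicate 2 at 0 h and at 3.92 and 3.56 FPKM at 2 h, and GAPDH was at 2102 and 2174 FPKM and then at 1915 and 1812 FPKM. Each 2 h library was also divided by the 0 h library of the same number, although the labels link the times only by that number. For replicate 2 this left 11.0% of KLF10 in either treatment, against 20.3% to 26.1% for the other replicates. With the replicate number as a block, the standard error of the difference of effects went from 0.24 to 0.08 for KLF10 and from 0.22 to 0.08 for KLF9. What the replicate number stands for was not tested.

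**Figure D5:**
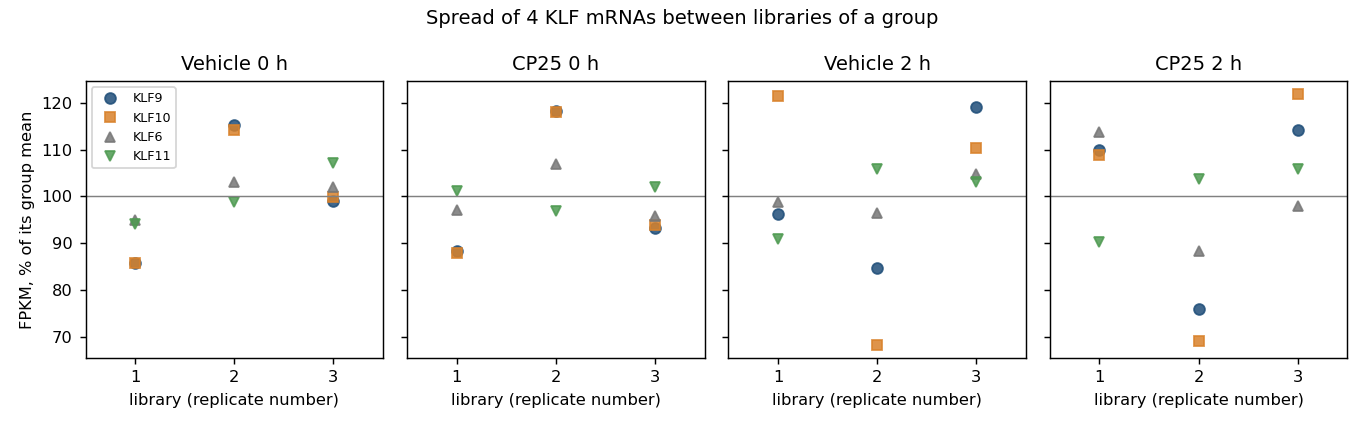
FPKM of KLF9, KLF10, KLF6 and KLF11 in each library as a percentage of its group mean (vertical axis), by replicate number (horizontal axis) in the 4 groups. KLF9 and KLF10 are highest in replicate 2 at 0 h, at 114% to 118%, and lowest in replicate 2 at 2 h, at 68.2% to 84.6%. KLF6 has replicate 2 at the same extremes with a smaller spread, and KLF11 does not.

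The genes whose pattern over the 12 libraries was most like that of a member were found by the root mean square difference of log2(FPKM + 1), each gene centred on its own mean, among 11386 candidates. They were EHD1 for KLF3 (0.05), IRX5 for KLF5 (0.06), SOX9 for KLF6 (0.07), TIFA for KLF9 (0.09), PARS2 for KLF10 (0.08), FAM83D for KLF11 (0.06) and SNAP47 for KLF13 (0.04). Because of the added 1 FPKM, a nearest gene of lower level can have less left, as IRX5 did at 11.8% in vehicle. Among the 7 members above the expression limit, the only ones compared with each other, the most alike were KLF6 and KLF11 (0.10), KLF5 and KLF6 (0.11) and KLF5 and KLF11 (0.12). KLF3 and KLF13 were 0.20 apart, as close as KLF5 and KLF10.

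The remaining Krüppel-like factors above the expression limit kept more than most of the 10, which were chosen with earlier results of these data known. Of 7 listed, KLF12, KLF15 and KLF16 passed the expression limit, and KLF15 kept 54.7% in vehicle and 54.3% in CP25 and KLF16 kept 58.4% and 52.3%. None of these 3 was under 50%. The SP factors, the sister family with the same type of zinc fingers, had 6 of 9 members above the limit and 3 of these under 50% in both treatments. SP9 kept 3.71% and 4.14%, SP8 kept 21.3% and 23.2%, and SP4 kept 38.4% and 39.6%. The broadly expressed SP3 kept 55.2% and 56.3%, and SP1 kept 59.4% and 62.6%. Between CP25 and vehicle, limma called 0 of these genes at 0 h, at 2 h or for the difference of effects, and 0 had an unadjusted p below 0.05.

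Of 16 cofactors and ubiquitin ligases reported to bind KLF proteins, all passed the limit and 3 were under 50%. These were the acetyltransferases EP300 (33.9% in vehicle) and CREBBP (34.1%) and the ubiquitin ligase subunit FBXW7 (43.8%). The deacetylases HDAC1 and HDAC2 stood at 126% each, that is, they made up more of the library at 2 h than at 0 h. The list's median was 84.0% in vehicle and 84.6% in CP25, near that of all genes. Of 20 reported KLF target genes, 17 passed, with a median of 58.0% in vehicle and 52.7% in CP25. Under 50% were 7 in vehicle and 8 in CP25. MYC kept 9.83% in vehicle, SMAD7 13.1% and ID1 14.2%. At the other end KRT8 stood at 141% and LGALS3 at 114%, both with overlapping libraries. Of either list, limma called 0 genes between CP25 and vehicle at 0 h, at 2 h or for the difference of effects, and 0 had an unadjusted p below 0.05. For scale, IER2, an immediate-early gene, kept 21.0% in vehicle, beside KLF5 at 21.4% and KLF6 at 22.6%. GAPDH stood at 121% in vehicle, with overlapping libraries and a range of 91.1% to 170%.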

How the data were processed

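Poly(A) RNA-seq of 12 HEK293T libraries was analysed. The deposited values are FPKM, in a table for 0 h and another for 2 h. Bowtie2 2.2.3, Trimmomatic 0.36, CASAVA 1.8.2 and the hg19 build are named in the submitters' processing notes. How the FPKM were made, by which program and annotation, is not given in the sources used here. Other deposited files hold the authors' p-values of CP25 against vehicle, which were adjusted here (Benjamini-Hochberg) over 13306 genes at 0 h and 13275 at 2 h with an OK status. KLF2 and KLF4 at 2 h were not tested there.

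From the FPKM, log2(FPKM + 1) was computed for genes that averaged 1 FPKM or more and compared within a table in R 4.3.3 by limma 3.58.1 (variance trend, Benjamini-Hochberg adjustment over all tested genes, threshold 0.05). The difference of CP25 effects was the interaction contrast over 12 libraries, in which a scale factor per table cancels only in part, because of the added 1 FPKM, and least for weakly expressed genes. The fits were tested on simulated data. The 2 h level was set against 0 h as the ratio of mean FPKM, with no test, since the tables may be scaled separately. Depth was estimated from the FPKM step worth 1 fragment and the GENCODE 29 transcript lengths of 21157 symbols, and it is approximate. UTR letters and coordinates are from GENCODE 29 on GRCh38, and the FPKM do not depend on them. For each gene the principal protein-coding transcript was taken. No KLF10 sequence or coordinate is given.

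The labels number the replicates and name no separate cultures; p-values therefore reflect spread among libraries that may be technical. Deviations from group means correlated between same-numbered vehicle and CP25 libraries at 0.35, 0.44 and 0.15 at 2 h. Between libraries of different number they ran from -0.44 to 0.12. From the data alone, the numbers therefore pair replicates 1 and 2 at 2 h, and replicate 3 less clearly. At 0 h the correlations were 0.26, -0.01 and 0.12, against -0.22 to 0.12 between different numbers, which does not settle a pairing. With the replicate number as a block, the standard error of the 0 h CP25 difference went from 0.13 to 0.04 for KLF9 and for KLF10.

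The members and gene lists were chosen with earlier results of these data known. All 10 members are named, as are MYC, JUN, IER2 and GAPDH, the 4 members of each related list that fell furthest and the 2 highest, and the nearest gene of each member above the limit. A gene that this rule names is not reported here. Alternatives tried were pseudocounts, no filter, median centring, quantile normalization, the replicate block, other scalings of the ratio and leaving out each library.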

Additional observations from a re-analysis of the deposited data

How the results depend on the processing

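No member was called in any comparison under any alternative run, and 7 of the 10 members stayed under 50% left in both treatments under every scaling and with each library left out. The median level left of the 10 members in vehicle was 26.9% with geometric means of FPKM + 0.1, 27.6% relative to the median gene and 19.7% relative to GAPDH. In CP25 it was 24.0%, 26.0% and 19.4%. Leaving out 1 library at a time gave 23.3% to 24.7% in vehicle and 22.6% to 23.2% in CP25. Relative to the median gene KLF13 kept 96.3% in vehicle. With geometric means KLF2 kept 17.2% in vehicle and 17.7% in CP25, since the added 0.1 FPKM weighs on its low values. The share of all genes under 50% was 13.6% in vehicle and 13.0% in CP25 for genes averaging 0.1 FPKM or more, and 13.0% and 12.6% for genes averaging 1 FPKM or more at 0 h; both backgrounds were chosen after seeing the data.

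The authors' p-values gave 0 genes called at 2 h. With 1 library left out, limma called 1 to 4 genes at 0 h, 1 to 7 at 2 h and 0 to 3 for the difference of effects, none of them a member. With the replicate block the limma calls stayed at 0, 1 and 0 genes. Genes with an unadjusted p below 0.05 rose to 857 at 0 h, 814 at 2 h and 1284 for the difference. The correlations between libraries at 0 h do not settle whether the numbers pair them there. Without the filter there were 319, 339 and 407. The log2 difference of KLF3 at 2 h was -0.00356 with median centring and -0.00800 with quantile normalization, and the difference of effects of KLF10 was -0.00941 and -0.0175, each across 0 from a value near it.

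Of 240 member differences with 1 library left out, 35 of members above the expression limit changed sign; those of members below it that crossed 0 moved by less than the spread between libraries. The ranges at 0 h were -0.0598 to 0.15 for KLF4, -0.0646 to 0.15 for KLF9, -0.0623 to 0.15 for KLF10, -0.0190 to 0.0737 for KLF5, -0.12 to 0.0187 for KLF7 and -0.00433 to 0.0779 for KLF11. At 2 h they were -0.0672 to 0.11 for KLF3, -0.0830 to 0.00899 for KLF5, -0.0431 to 0.0693 for KLF6, -0.0632 to 0.17 for KLF9, -0.0979 to 0.22 for KLF10 and -0.0585 to 0.0317 for KLF11. For the difference of effects they were -0.0113 to 0.17 for KLF3, -0.10 to 0.0101 for KLF6, -0.13 to 0.12 for KLF9 and -0.15 to 0.17 for KLF10. KLF13 stayed negative at 2 h (-0.20 to -0.10) and for the difference (-0.26 to -0.15). The cause of these changes was not tested. Quantile normalization and the block were not run for members under the expression limit. Depth limits KLF2 at 2 h most, at 0 to 5.0 fragments per library.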
